A study of Mus musculus with 14 samples.

Results

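Day 14 of muscle overload was set against day 0 in the mouse plantaris, a muscle of the calf, to see which genes were still changed at the last sampled time. The comparison used the 4 arrays that the labels place on day 14 or day 0, out of 14 arrays in the series. On each of these days, an array held RNA pooled from the left muscles of 6 animals and another held RNA pooled from the right muscles of 6 animals. The day 14 group was plantaris of 25-month-old male C57BL/6J mice 14 days after synergist ablation, the surgical removal of the gastrocnemius and soleus, which leaves the plantaris to carry their load. The day 0 group was plantaris of mice of the same strain, sex and age at the start of the time course. Both groups were therefore old animals. No group is labelled as sham-operated, so surgery and load cannot be told apart, and since each day is a separate set of animals, day and animals cannot be told apart either.

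The arrays (Affymetrix Mouse Gene 1.0 ST) measured 19938 genes that had a probe set of their own. Array medians over the genes lay between 8.25 and 8.42 on all 14 arrays. Within a day, left and right correlated at r between 0.994 and 0.997 across genes, which are not independent replicates, and the lowest value was that of day 0. Both pools of a day appear to come from 1 set of animals, so with n = 2 arrays per day the tests see only how far sides and arrays differ, which limits the precision. In what follows a signal is a log2 value given for the left and then the right pool, a difference is the day 14 mean minus the day 0 mean on the log2 scale with its standard error, and a gene rose or fell where limma gave an adjusted p under 0.05. A signal is not compared between genes, because each probe set has its own response.

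An adult muscle whose synergists are removed grows within days. Satellite cells, the stem cells that lie on muscle fibres, divide and fuse with the fibres, fibres re-express contractile genes of the embryo, connective tissue between the fibres is rebuilt and macrophages enter the tissue. Fast fibres contract quickly and burn glycogen, slow fibres rely on mitochondria, and sustained load is known to shift fibres toward the slow kind. The labelled tissue was checked against genes of skeletal muscle fibres, and these had high signals in both groups. Myh1, a fast myosin heavy chain, had signals of 13.86 and 13.91 on the day 14 arrays, against 13.70 and 13.85 on the day 0 arrays, and Acta1, the skeletal muscle actin, of 14.37 and 14.44 on day 14, against 14.34 and 14.36 on day 0. Both genes did not pass, with differences of 0.11 ± 0.12 and 0.06 ± 0.07.

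On day 14, 4559 genes were higher than on day 0, which is 22.9% of the genes tested, and 6074 were lower, which is 30.5%. Counts of list members below are to be read against these shares. Counts of 2-fold changes are to be read against the 2-fold shares given next. Most differences of the called genes were small. The median over all genes was -0.11, and 1209 genes (6.06%) were at least 2-fold higher while 430 (2.16%) were at least 2-fold lower. Among the called genes 10617 had both day 14 arrays beyond both day 0 arrays. With 2 arrays against 2 this held for nearly every called gene, so it is no further support for the calls. The share over all genes was not counted. The balance between directions depended on the scaling: 42.9% of the calls were rises with the deposited values, 42.4% after quantile normalization, 28.4% with equal array medians and 61.1% after the median difference was shifted to 0. Against day 10, the sampled day before, 756 genes (3.79%) were higher on day 14 and 1019 (5.11%) were lower, and without the right pool of day 10 these counts were 57 and 180. Between right and left pools 0 genes passed in limma, with 2092 at an unadjusted p under 0.05.

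The largest rises belonged to genes of connective tissue, imprinted genes, an embryonic myosin and a few macrophage genes. C1qtnf3, a secreted protein of the C1q and tumour necrosis factor family, had signals of 12.99 and 12.90 on the day 14 arrays, against 7.61 and 7.58 on the day 0 arrays. The arrays of a day nearly coincided and the groups were 40.7-fold apart, a difference of 5.35 ± 0.11 (adjusted p = 6.8e-11). Mest, an imprinted gene active in embryonic mesoderm, had signals of 13.10 and 13.20 on day 14, against 8.30 and 8.06 on day 0, a difference of 4.97 ± 0.12 (adjusted p = 1.36e-10). For Sfrp2, a secreted protein that binds Wnt ligands, the signals were 12.19 and 12.01 on day 14, against 8.01 and 7.06 on day 0. Its day 0 arrays stood further apart than its day 14 arrays, by far less than the 4.56 ± 0.22 between the days. Cthrc1, a glycoprotein secreted by activated fibroblasts, had signals of 12.25 and 12.14 on day 14, against 7.68 and 7.61 on day 0 and was 23.4-fold higher. Further down the 20 largest rises stood Plagl1 (4.27 ± 0.15), an imprinted zinc finger factor, Postn (4.17 ± 0.19), the matrix protein periostin, Timp1 (3.82 ± 0.13), an inhibitor of matrix metalloproteinases, and Lrrc15 (3.43 ± 0.14), a membrane protein of fibroblasts.

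The largest falls included genes of channels, enzymes and secreted factors of muscle, and also Alb, the serum albumin gene described further on. Odf3l2 had signals of 7.64 and 7.32 on the day 14 arrays, against 10.68 and 10.74 on the day 0 arrays, a difference of -3.24 ± 0.11, and was 9.43-fold lower (adjusted p = 8.99e-10). Ostn, the secreted muscle peptide osteocrin or musclin, had signals of 8.64 and 7.87 on day 14, against 11.50 and 11.31 on day 0, and its left pool of day 14 stood above its right pool while both stayed below day 0. Gdap1, which sits in the outer membrane of mitochondria, had signals of 7.15 and 7.23 on day 14, against 10.27 and 10.35 on day 0 and a difference of -3.12 ± 0.10. Neto2, known in brain as an auxiliary subunit of kainate receptors, fell by 3.18 ± 0.15 on the log2 scale. Mylk4, a kinase of the myosin light chain kinase family, had signals of 11.11 and 10.84 on day 14, against 13.38 and 13.49 on day 0 and was 5.49-fold lower. Scn4b, a beta subunit of voltage-gated sodium channels, and the auxiliary subunits of potassium channels Lrrc52 and Lrrc38 stood at -2.39 ± 0.25, -2.36 ± 0.17 and -2.26 ± 0.12. Pfkfb3, which makes the glycolysis activator fructose 2,6-bisphosphate, stood at -2.36 ± 0.10 and Nt5c1a, a nucleotidase that acts on AMP, at -2.39 ± 0.10.

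**Figure D1:**
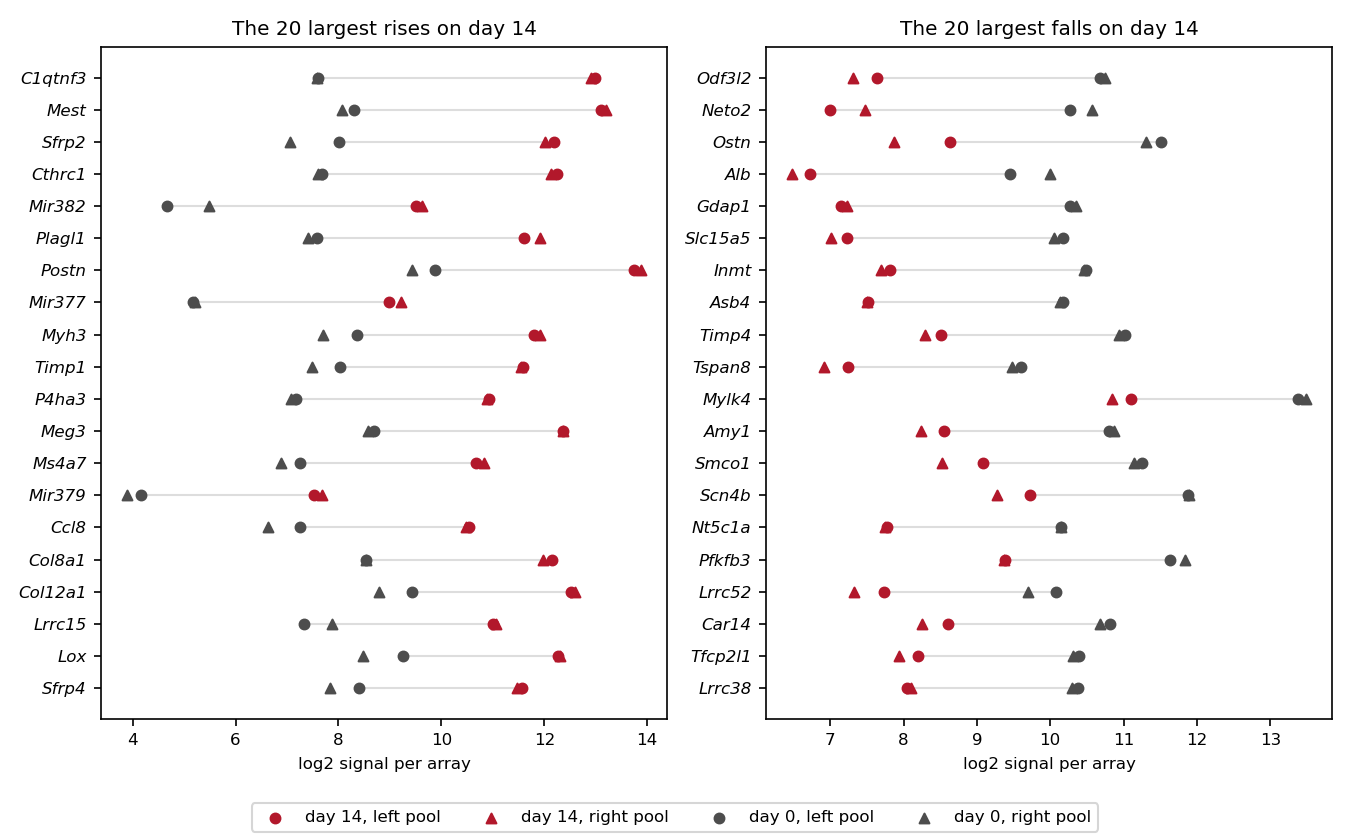
Log2 signal on each of the 4 arrays (x axis) for the 20 genes with the largest rises (left panel) and the 20 with the largest falls (right panel) on day 14, 1 gene per line; red marks are the day 14 pools, grey marks the day 0 pools, circles left and triangles right muscles. In every line both red marks lie beyond both grey marks, which the choice of these genes required.

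Every measured collagen gene of the list was still raised. All 18 fibrillar and network collagens were higher on day 14, against 22.9% of all genes, and 15 of them by at least 2-fold, with a median difference of 2.19, against -0.11 over all genes. Collagen type I alpha 1, the main chain of bone, tendon and scar (Col1a1), had signals of 13.60 and 13.51 on the day 14 arrays, against 10.56 and 10.39 on the day 0 arrays, a difference of 3.08 ± 0.08 (adjusted p = 2.08e-10). Col3a1, which forms the finer fibrils of loose connective tissue, had signals of 12.93 and 12.75 on day 14, against 9.61 and 9.56 on day 0. Col8a1, a short-chain network collagen, and Col12a1, which binds the surface of fibrils, stood at 3.52 ± 0.09 and 3.45 ± 0.20. The smallest rise in the list was that of Col16a1 at 0.42 ± 0.08, and the basement membrane chains Col4a1 and Col4a2 stood at 1.15 ± 0.08 and 0.98 ± 0.10. Against day 10, Col5a1 was lower at -0.39 ± 0.07 (adjusted p = 0.00976), and the other 17 did not pass.

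Enzymes that fold and crosslink collagen followed the same direction, with 16 of 18 measured genes higher, none lower and a median of 1.66. P4ha3, a subunit of prolyl 4-hydroxylase, had signals of 10.92 and 10.88 on the day 14 arrays, against 7.18 and 7.07 on the day 0 arrays and a difference of 3.78 ± 0.08. The related subunit genes P4ha1 and P4ha2 did not pass, at 0.18 ± 0.09 and -0.09 ± 0.12. Lox, the lysyl oxidase that starts crosslinking, had signals of 12.27 and 12.30 on day 14, against 9.25 and 8.47 on day 0, and Plod2, which hydroxylates lysines of the collagen telopeptide, stood at 3.35 ± 0.14. All 23 matricellular proteins and glycoproteins rose, with a median of 1.99; tenascin C (Tnc), a glycoprotein of injured tissue and of the tendon junction, had signals of 12.53 and 12.47 on day 14, against 9.64 and 8.97 on day 0 and was -0.60 ± 0.16 relative to day 10 (adjusted p = 0.0349). Elastin (Eln) stood at 1.77 ± 0.18 and was higher than on day 10 by 0.99 ± 0.18 (adjusted p = 0.00821). Of 12 small leucine-rich proteoglycans and hyaluronan-related genes 10 rose, led by Vcan, the large proteoglycan versican, at 2.85 ± 0.11, asporin (Aspn) at 2.52 ± 0.12 and lumican (Lum) at 2.39 ± 0.13. Decorin (Dcn), which belongs to the family of asporin and lumican, rose by 0.21 ± 0.08 (adjusted p = 0.0438).

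Matrix proteases and their inhibitors were split. Of 22 genes 16 rose and 3 fell, with a median of 1.83. The inhibitor genes went in different directions: Timp1 had signals of 11.59 and 11.55 on the day 14 arrays, against 8.02 and 7.49 on the day 0 arrays, whereas Timp4, an inhibitor made by adult muscle, had signals of 8.50 and 8.30 on day 14, against 11.03 and 10.94 on day 0. Timp2 rose by 1.32 ± 0.08 and Timp3 stood at 0.01 ± 0.11. The collagenase Mmp13 stood at 3.16 ± 0.33, the membrane-bound protease Mmp14 at 2.84 ± 0.09 and the gelatinase Mmp2 at 2.21 ± 0.12. The neutrophil protease genes Mmp8 and Mmp9 fell, at -1.74 ± 0.37 and -0.99 ± 0.23, and with them moved the other neutrophil genes described further on.

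Genes of the cells that make this matrix were higher as well, with 13 of 15 genes of fibro-adipogenic progenitors and tendon cells above day 0 and none below. Tnmd, the tendon protein tenomodulin, had signals of 12.50 and 12.66 on the day 14 arrays, against 9.60 and 9.09 on the day 0 arrays, a difference of 3.23 ± 0.16. Thy1 and the platelet-derived growth factor receptor gene Pdgfra, both surface markers of fibroblasts, stood at 2.13 ± 0.11 and 0.87 ± 0.10. Pi16, a marker of adventitial fibroblasts, stood at 1.48 ± 0.23 and was higher than on day 10. The summed linear signal of the 15 genes was 37140 and 36722 on day 14, against 13974 and 13088 on day 0. Such a sum, here and below, is weighted toward the probe sets with the highest signals and is no measure of cell number. More cells of a type and more RNA per cell cannot be told apart in pooled tissue, here or in any result below.

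**Figure D2:**
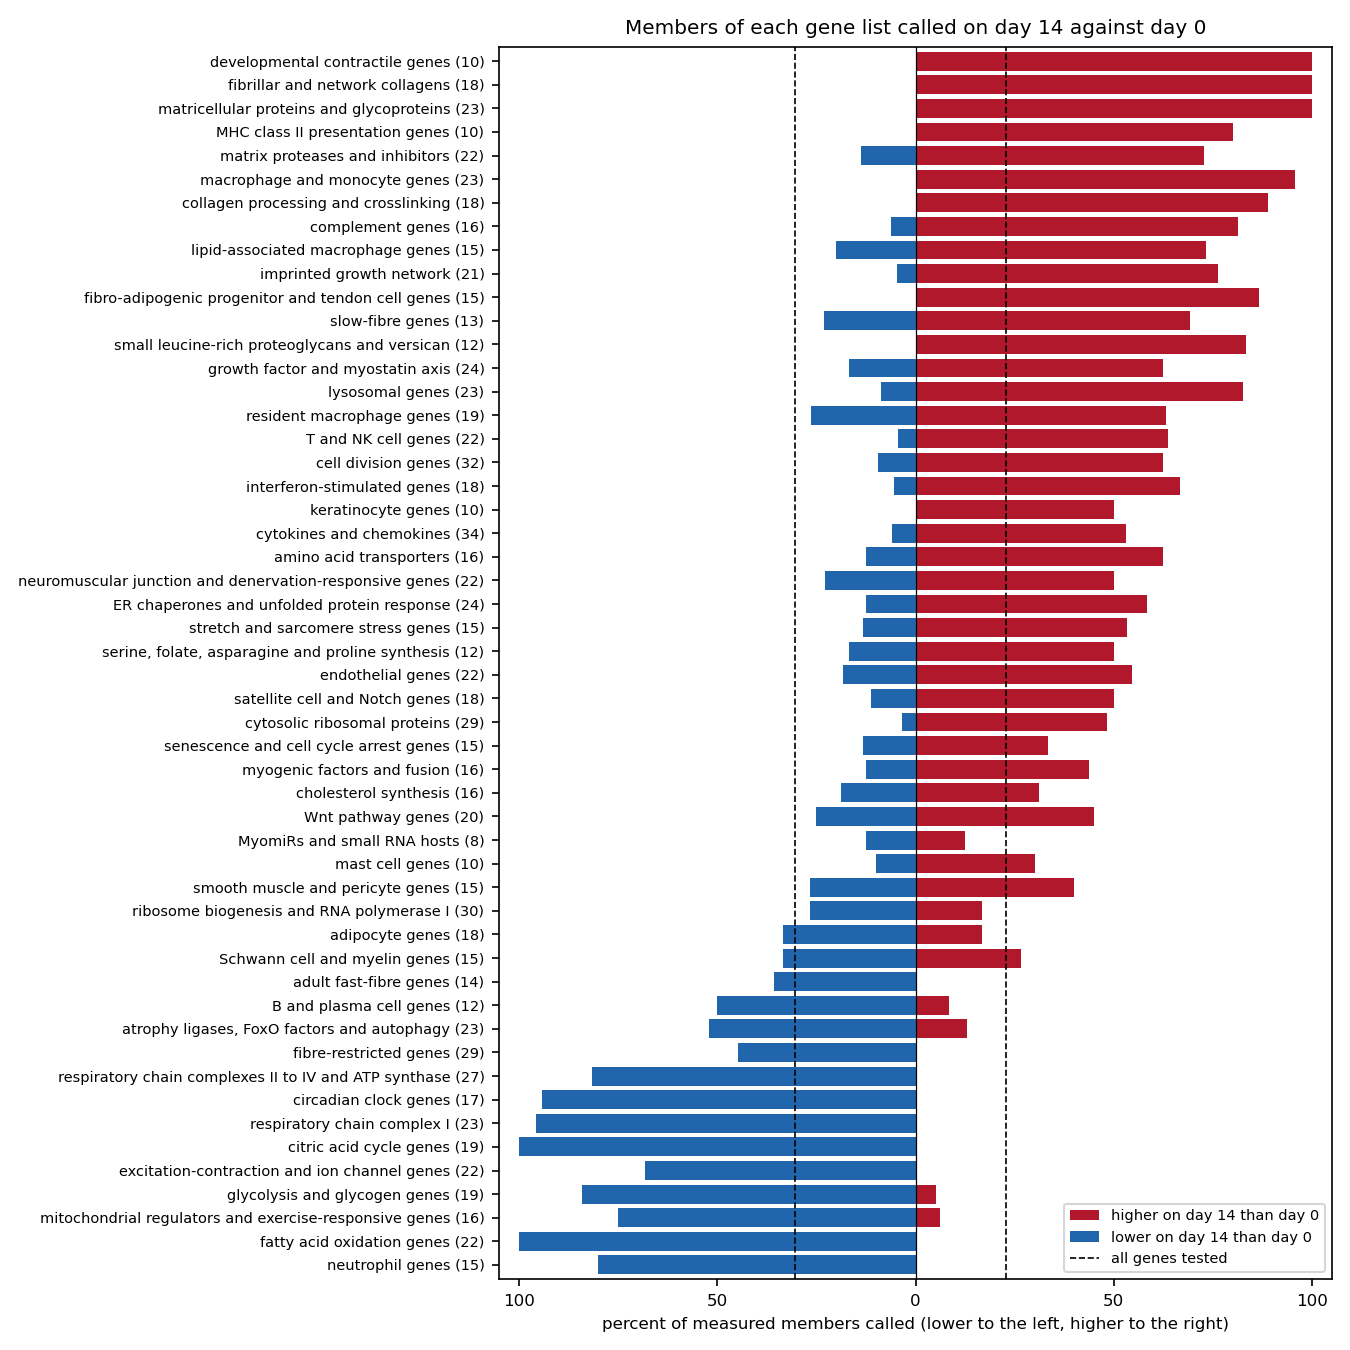
Percent of measured members of each gene list with at least 8 measured genes that were higher (red, to the right) or lower (blue, to the left) on day 14 than on day 0, lists ordered by their median difference and the number measured in brackets; dashed lines mark the shares over all genes tested, 22.9% and 30.5%. Developmental contractile genes, collagens and matricellular proteins reach 100% higher, and citric acid cycle and fatty acid oxidation genes reach 100% lower.

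Contractile genes of the embryo were high on day 14, while 9 of 14 adult fast-fibre genes did not pass. All 10 genes of the developmental contractile list, which also counts the acetylcholine receptor subunit genes Chrng and Chrna1, rose by at least 2-fold, with a median of 2.34. Myh3, the embryonic myosin heavy chain, had signals of 11.80 and 11.92 on the day 14 arrays, against 8.35 and 7.70 on the day 0 arrays, which is 14.3-fold higher (adjusted p = 4.84e-09), and Myh8, the perinatal heavy chain, had signals of 11.98 and 12.05 on day 14, against 9.27 and 9.32 on day 0. Both were still high, but Myh3 was -0.64 ± 0.16 relative to day 10 (adjusted p = 0.0314). Cardiac actin (Actc1), the actin of the heart and of developing muscle, had signals of 13.85 and 13.85 on day 14, against 11.13 and 11.06 on day 0. Myl4, the embryonic and atrial light chain, stood at 2.24 ± 0.08 and Tnnt2, cardiac troponin T, at 2.44 ± 0.11, and both were lower than on day 10.

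None of the 14 adult fast-fibre genes rose and 5 fell, with a median of -0.20. The fast myosin heavy chains differed little: Myh2 stood at 0.09 ± 0.13 and Myh1 at 0.11 ± 0.12 (adjusted p = 0.564 and 0.421). Myh4, the fastest of the set, had signals of 13.45 and 13.54 on the day 14 arrays, against 13.83 and 13.87 on the day 0 arrays, a difference of -0.35 ± 0.09 (adjusted p = 0.00777), and this call ended after the median difference was shifted to 0 (adjusted p = 0.0533). Mybpc2, the fast myosin binding protein C, had the largest fall of the list at -0.81 ± 0.15. The number of falls in this list was 2 after the median difference was shifted to 0 and 8 with equal array medians, 3 without either pool of day 14.

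Slow-fibre genes moved the other way in most cases, with 9 of 13 higher and 3 lower and a median of 1.12. Tnnc1, the troponin C of slow and cardiac muscle, had signals of 11.35 and 11.17 on the day 14 arrays, against 9.78 and 9.03 on the day 0 arrays, and Tnnt1, slow troponin T, had signals of 11.37 and 11.36 on day 14, against 9.85 and 9.40 on day 0. For Atp2a2, the calcium pump of slow and cardiac muscle, the difference was 1.26 ± 0.13. Tnni1, slow troponin I, which is counted in the developmental list, stood at 2.51 ± 0.20. Myh7, the slow myosin heavy chain, had signals of 10.89 and 10.60 on day 14, against 10.03 and 9.40 on day 0, a difference of 1.03 ± 0.37 (adjusted p = 0.0327). That call ended without the left pool of day 14 (adjusted p = 0.129), without the right pool of day 14 (0.0617), without the right pool of day 0 (0.212), with an intensity trend and robust estimation (0.0941) and with array weights (0.0545). The slow genes Pln, phospholamban, and Myl3, a ventricular light chain, fell by 1.33 ± 0.19 and 0.92 ± 0.24 on the log2 scale.

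Of 29 genes restricted to muscle fibres none rose and 13 fell, with a median of -0.35; with equal array medians 24 fell. Their summed linear signal was 268254 and 265709 on day 14, against 320632 and 320774 on day 0. Among them Phka1, a subunit of phosphorylase kinase, fell by 1.60 ± 0.15 on the log2 scale, Tcap, the titin cap protein of the Z-disc, by 1.20 ± 0.23 and Jph1, which joins the T-tubule to the sarcoplasmic reticulum, by 1.06 ± 0.14. Titin (Ttn), nebulin (Neb) and muscle creatine kinase (Ckm) did not pass, at -0.15 ± 0.08, -0.10 ± 0.07 and -0.14 ± 0.10.

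The differentiation factor Myog and the fusion gene Mymk were higher on day 14, while the stem cell gene Pax7 and the early factor Myod1 did not pass. Myog, the factor that starts terminal differentiation, had signals of 9.20 and 9.36 on the day 14 arrays, against 7.29 and 7.15 on the day 0 arrays, a difference of 2.06 ± 0.09 (adjusted p = 7.52e-09), and was -1.11 ± 0.09 relative to day 10 (adjusted p = 0.000192). Mymk, the membrane protein myomaker that lets myoblasts fuse, had signals of 11.64 and 11.70 on day 14, against 8.66 and 8.43 on day 0, 8.7-fold higher, and was -0.87 ± 0.10 relative to day 10. Both had thus come down since day 10 without reaching day 0. Pax7, which marks satellite cells, had signals of 8.94 and 9.04 on day 14, against 8.85 and 8.92 on day 0 and did not pass (adjusted p = 0.268), although it passed after the median difference was shifted to 0 (adjusted p = 0.0395). Myod1, the early myogenic factor, stood at 0.08 ± 0.12 and Myf5, its relative, rose by 0.45 ± 0.13. Of 16 myogenic genes 7 rose, 2 fell and 7 did not pass, and the list median of 0.10 turned to -0.02 with equal array medians.

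Notch genes, which keep satellite cells quiescent, and other satellite cell genes had 9 of 18 members higher and 2 lower. Over all genes the shares were 22.9% and 30.5%. Notch2 stood at 1.12 ± 0.09 and the ligand gene Jag1 at 0.79 ± 0.09. Chodl, a membrane lectin, had signals of 9.26 and 9.54 on the day 14 arrays, against 8.41 and 8.35 on the day 0 arrays, and this rise appeared late, with a difference of -0.50 on day 7 and 0.28 on day 10.

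At the neuromuscular junction the fetal receptor subunit was up and the adult one down. Chrng, the gamma subunit of the fetal acetylcholine receptor, had signals of 9.51 and 9.64 on the day 14 arrays, against 7.75 and 7.82 on the day 0 arrays, a difference of 1.79 ± 0.10 (adjusted p = 5.21e-08). Chrne, the epsilon subunit that replaces it in adult muscle, had signals of 10.32 and 10.05 on day 14, against 10.80 and 10.72 on day 0, a difference of -0.58 ± 0.15 (adjusted p = 0.00784). The fetal subunit was -1.14 ± 0.10 relative to day 10 and the adult one 0.74 ± 0.15 (adjusted p = 0.000277 and 0.0139). Chrna1 and Chrnd, subunits that both receptor forms contain, stood at 1.45 ± 0.14 and 1.42 ± 0.10. Runx1, a transcription factor raised in denervated muscle, had signals of 12.04 and 12.19 on day 14, against 9.87 and 9.84 on day 0, and Ncam1, the neural adhesion molecule of regenerating and denervated fibres, stood at 1.98 ± 0.10. Musk, the receptor kinase of the synapse, was at -0.66 ± 0.10 and Dach2, a repressor that also responds to denervation, at -1.67 ± 0.14. Of 22 genes in this list 11 rose and 5 fell.

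The receptor subunit genes Chrng and Chrna1 are shown with their promoters because both rose and because the canonical E-box, the site bound by MyoD and myogenin, can be read in the sequence. The windows run from 250 bases before to 50 bases after the RefSeq start in GRCm38.p6, and capitals mark the letters CAGCTG, which read the same on both strands and are a special case of CANNTG.
Chrng, chr1:87205561-87205860, plus strand: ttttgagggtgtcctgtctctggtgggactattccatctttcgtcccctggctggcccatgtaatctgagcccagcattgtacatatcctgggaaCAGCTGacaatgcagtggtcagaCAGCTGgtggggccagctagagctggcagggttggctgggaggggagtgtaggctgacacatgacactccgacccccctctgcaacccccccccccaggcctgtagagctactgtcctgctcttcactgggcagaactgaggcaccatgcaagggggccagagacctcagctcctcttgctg
Chrna1, chr2:73580289-73580588, minus strand: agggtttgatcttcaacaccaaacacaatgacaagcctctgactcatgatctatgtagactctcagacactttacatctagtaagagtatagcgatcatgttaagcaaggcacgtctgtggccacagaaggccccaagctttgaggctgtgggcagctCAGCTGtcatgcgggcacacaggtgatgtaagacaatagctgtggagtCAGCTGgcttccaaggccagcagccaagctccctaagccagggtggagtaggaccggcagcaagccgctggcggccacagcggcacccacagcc
Each window holds CAGCTG 2 times and CANNTG 3 times, those CAGCTG included. CAGCTG occurs in 16.3% and CANNTG in 72.3% of the 32851 promoter windows in the table. Among the contractile genes of the developmental list with a window, CAGCTG was found in at least 1 window of Tnnt2, Tnni1 and Mybph and not in those of Myh3, Myh8, Actc1, Myl4 and Myl6b. The window of Myog, which also rose, held CAGCTG 0 times and CANNTG 2 times. Because the 2 windows shown were picked for holding the motif, the shares over all windows are no test of them. These matches describe letters in a window, and the genes were looked up after their values were seen.

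Imprinted genes, which are expressed from the copy of a single parent and of which many act on fetal growth, held 6 of the 20 largest rises when the miRNA genes between Dlk1 and Dio3 are counted with them. Of 21 genes in the imprinted list 16 rose and 1 fell, with a median of 1.21. Igf2, the fetal growth factor, had signals of 12.70 and 12.87 on the day 14 arrays, against 9.85 and 9.85 on the day 0 arrays, a difference of 2.94 ± 0.12. Plagl1 had signals of 11.60 and 11.92 on day 14, against 7.57 and 7.41 on day 0, Peg3, a zinc finger gene, of 11.81 and 11.98 on day 14, against 8.98 and 8.69 on day 0, and Zdbf2 of 9.68 and 10.16 on day 14, against 6.75 and 6.92 on day 0. These groups did not overlap, which the rule for the largest rises required of Plagl1. The arrays of a day lay closer together than the days. Grb10, an adaptor that dampens insulin and IGF receptor signalling, stood at 1.90 ± 0.08, and Cdkn1c, the cell cycle inhibitor p57, at 1.21 ± 0.10. Asb4, an ankyrin repeat protein, was the member that fell, at -2.65 ± 0.11.

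The region between Dlk1 and Dio3 on mouse chromosome 12 is an imprinted cluster with protein genes on the paternal copy and long noncoding RNAs, small nucleolar RNAs and a large group of miRNAs on the maternal copy. It was chosen after its values were seen. Of 103 RefSeq genes in it 48 were measured, and of these 44 rose, 35 by at least 2-fold, 1 fell and 3 did not pass. At its start, Dlk1, a membrane protein related to Notch ligands, had signals of 11.91 and 11.98 on the day 14 arrays, against 8.67 and 8.65 on the day 0 arrays, a difference of 3.28 ± 0.14, and was 0.63 ± 0.14 relative to day 10 (adjusted p = 0.0201). Meg3, the long noncoding RNA, had signals of 12.36 and 12.36 on day 14, against 8.68 and 8.57 on day 0, and Rian, the next one, had a difference of 2.46 ± 0.16. The paternal genes Rtl1 and Dio3 did not pass, at 0.24 ± 0.12 and -0.18 ± 0.10.

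Of 40 miRNA genes measured in the region 38 rose and 31 did so by at least 2-fold, with a median of 1.79. Among the 257 miRNA genes elsewhere in the genome, 37 rose and 35 fell, 5 rose by at least 2-fold and the median was -0.08. The 10 miRNA genes before Mir379 had a median of 1.04, with 9 higher, and the 30 from Mir379 on had a median of 2.11, with 29 higher. Mir382 had signals of 9.51 and 9.63 on the day 14 arrays, against 4.67 and 5.48 on the day 0 arrays, a difference of 4.50 ± 0.20 (adjusted p = 5.43e-09). Mir377 had signals of 8.98 and 9.21 on day 14, against 5.18 and 5.22 on day 0 and Mir379, the first of its group, of 7.53 and 7.68 on day 14, against 4.16 and 3.89 on day 0. The groups did not overlap for these 3 genes, which the rule for the largest rises required of them. The medians of the 40 genes were 0.04 on day 3, 0.75 on day 7, 1.55 on day 10 and 1.79 on day 14. Mir666 was the miRNA gene that fell, at -0.32 ± 0.11. The probe sets lie on hairpin genes, and whether a value stems from mature miRNA, its precursor or the host transcript was not tested.

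Mature sequences of the miRNA genes that rose most are shown with the 2 pairs that share a seed, the stretch from base 2 to base 8 that pairs with target mRNAs. Capitals mark the seed.
miR-382-5p: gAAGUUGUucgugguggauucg
miR-377-3p: aUCACACAaaggcaacuuuugu
miR-379-5p: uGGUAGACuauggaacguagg
miR-379-3p: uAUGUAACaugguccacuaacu
miR-411-3p: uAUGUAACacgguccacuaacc
miR-376b-5p: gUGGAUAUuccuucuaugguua
miR-376c-5p: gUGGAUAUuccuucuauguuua
The sequences are from RefSeq, on the plus strand of GRCm38.p6. They lie at chr12:109733781-109733802 for miR-382-5p, chr12:109740553-109740574 for miR-377-3p, chr12:109709065-109709085 and chr12:109709102-109709123 for the arms of miR-379, chr12:109710225-109710246 for miR-411-3p, and chr12:109723471-109723492 and chr12:109722733-109722754 for the miR-376 arms. The miR-379-3p and miR-411-3p sequences share the seed AUGUAAC, and their genes rose by 3.58 ± 0.14 and 2.87 ± 0.17. The miR-376b-5p and miR-376c-5p sequences share UGGAUAU, with gene differences of 3.05 ± 0.18 and 1.80 ± 0.15. Over the 40 genes the reference held 76 mature sequences with 74 distinct seeds, so these were the only seeds shared among the sequences held. It lacked an arm of Mir376c, Mir485, Mir487b and Mir539, and the seeds of those arms were not compared.

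**Figure D3:**
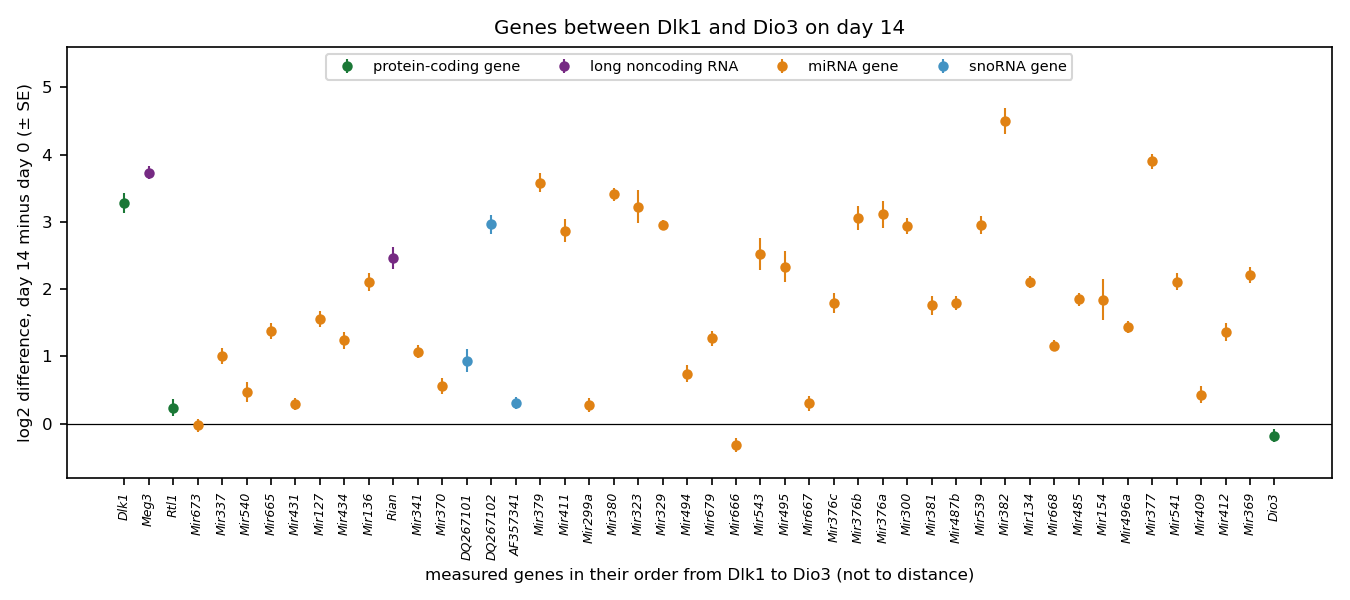
Log2 difference of day 14 minus day 0 with its standard error (y axis) for the 48 measured genes between Dlk1 and Dio3, in gene order (x axis, evenly spaced); colours mark the kind of gene. All lie above 0 except Mir673, Mir666 and Dio3, and the largest stand at Mir382 and Mir377.

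Outside the region, the muscle miRNA gene Mir206, which is raised in regenerating muscle and at the synapse, had signals of 7.17 and 7.65 on the day 14 arrays, against 5.72 and 5.79 on the day 0 arrays, a difference of 1.66 ± 0.17. Its main arm, shown for its role in muscle, is on the plus strand at chr1:20679055-20679076.
miR-206-3p: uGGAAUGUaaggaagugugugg
The other miRNA genes elsewhere with a rise of at least 2-fold were Mirlet7c-1 at 2.30 ± 0.16, Mir181b-1 at 1.91 ± 0.13, Mir99a at 1.80 ± 0.09 and Mir350 at 1.02 ± 0.15. Mir499, which lies within the slow myosin gene Myh7b, stood at -0.39 ± 0.13, and this call ended under 5 alternatives, with adjusted p between 0.0517 and 0.163.

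Most listed growth factor genes were higher on day 14, and myostatin was lower. Igf1, a main growth factor of muscle, had signals of 11.94 and 12.07 on the day 14 arrays, against 9.94 and 9.78 on the day 0 arrays, a difference of 2.15 ± 0.09 (adjusted p = 4.23e-09). Mstn, myostatin, which limits muscle mass, had signals of 9.54 and 9.77 on day 14, against 11.19 and 11.28 on day 0, a difference of -1.58 ± 0.15, and had risen since day 10 by 1.07 ± 0.15 (adjusted p = 0.00257). Fst, follistatin, which binds and blocks myostatin, had signals of 10.04 and 10.45 on day 14, against 9.18 and 9.01 on day 0, a difference of 1.15 ± 0.13. Acvr2b, the receptor of myostatin, was -0.78 ± 0.07. Fstl1, a secreted glycoprotein of the follistatin family, stood at 2.49 ± 0.08, the IGF binding protein genes Igfbp4 and Igfbp7 at 2.03 ± 0.09 and 1.25 ± 0.07, and Tgfb1 at 1.27 ± 0.12. Of 24 genes in the list 15 rose and 4 fell, with a median of 0.67.

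Among 20 Wnt pathway genes 9 rose and 5 fell, and the rises were led by secreted proteins that bind Wnt ligands. Sfrp4 had signals of 11.57 and 11.48 on the day 14 arrays, against 8.40 and 7.83 on the day 0 arrays and was 1.31 ± 0.26 relative to day 10 (adjusted p = 0.0114), while Sfrp1 stood at 2.88 ± 0.08. Axin2, a target gene of the pathway, did not pass at -0.17 ± 0.08, and Wnt4 and the receptor gene Fzd9 stood at -0.59 ± 0.11 and -1.11 ± 0.08. The list median of 0.06 turned to -0.06 with equal array medians. Stretch and sarcomere stress genes had 8 of 15 members higher and 2 lower. Ankrd1, an ankyrin repeat protein induced by stretch, had signals of 12.10 and 12.15 on day 14, against 10.75 and 10.04 on day 0, and Csrp3, the muscle LIM protein of the Z-disc, stood at 1.69 ± 0.22.

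Genes of energy metabolism had lower signals across nearly every listed step on day 14, by less than 2-fold for most genes. All 22 fatty acid oxidation genes fell, against 30.5% of all genes, with a median of -0.70. Acadm, the medium-chain acyl-CoA dehydrogenase, had signals of 11.77 and 11.63 on the day 14 arrays, against 12.83 and 12.81 on the day 0 arrays, a difference of -1.12 ± 0.10 (adjusted p = 1.27e-06). Lpl, the lipase that frees fatty acids from lipoproteins, stood at -1.05 ± 0.09 and Ucp3, an uncoupling protein of muscle mitochondria, at -1.02 ± 0.17. All 19 citric acid cycle genes fell, with a median of -0.59, and 10 of them were higher than on day 10, against 3.79% of all genes. Suclg1 and Sucla2, subunits of succinyl-CoA ligase, stood at -1.03 ± 0.09 and -0.95 ± 0.14, and citrate synthase (Cs) at -0.38 ± 0.08.

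In the respiratory chain 22 of 23 complex I genes and 22 of 27 genes of complexes II to IV and ATP synthase fell, and none rose. Their medians were -0.53 and -0.42. Ndufs1, the largest core subunit of complex I, had signals of 11.42 and 11.46 on the day 14 arrays, against 12.19 and 12.36 on the day 0 arrays, and Sdhb, the iron-sulphur subunit of succinate dehydrogenase, of 11.36 and 11.23 on day 14, against 12.16 and 12.33 on day 0. Their differences were -0.83 ± 0.12 and -0.95 ± 0.09. Genes that control mitochondria were lower too, with 12 of 16 below day 0 and 1 above. Ppargc1a, the coactivator of mitochondrial biogenesis, had signals of 10.12 and 9.87 on day 14, against 11.21 and 11.19 on day 0, a difference of -1.20 ± 0.21. Rxrg, a retinoid X receptor of muscle, stood at -1.72 ± 0.10, Ppara at -1.36 ± 0.12 and Vegfa, the vascular growth factor, at -0.95 ± 0.09. Prox1, a homeobox factor of slow fibres, was the member that rose, at 0.86 ± 0.09.

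Of 19 glycolysis and glycogen genes 16 fell and 1 rose, with a median of -0.61. Among the largest falls, Fbp2, the muscle fructose bisphosphatase, had signals of 7.64 and 7.73 on the day 14 arrays, against 9.71 and 9.71 on the day 0 arrays, a difference of -2.02 ± 0.11. Phkg1, the catalytic subunit of phosphorylase kinase, stood at -1.52 ± 0.20, Hk2, the muscle hexokinase, at -1.20 ± 0.16 and Ldhb, the lactate dehydrogenase chain of oxidative tissue, at -1.54 ± 0.11. Core enzymes moved little, with Aldoa, aldolase A, at -0.20 ± 0.07, Ldha at -0.27 ± 0.07 and Eno3, muscle enolase, not passing at -0.13 ± 0.09. Hk1, a hexokinase found in many tissues, stood at 0.26 ± 0.07.

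Genes of excitation and calcium release were lower, 15 of 22 with none higher and a median of -0.59. Clcn1, the chloride channel that stabilises the resting fibre, had signals of 10.04 and 9.93 on the day 14 arrays, against 11.36 and 11.42 on the day 0 arrays, a difference of -1.41 ± 0.15. Kcng4, a potassium channel subunit, stood at -1.64 ± 0.09, Stac3, which couples excitation to contraction, at -0.82 ± 0.11, and the calcium release channel gene Ryr1 at -0.55 ± 0.12. Rpl3l, a ribosomal protein paralogue made in heart and skeletal muscle, had signals of 10.61 and 10.29 on day 14, against 12.10 and 12.14 on day 0, and it had regained 1.03 ± 0.25 since day 10.

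Nearly all clock genes were lower, and genes of protein breakdown were split. Of 17 clock genes 16 fell and none rose, with a median of -0.50; 10 fell after the median difference was shifted to 0. Ciart, a repressor of the clock, had signals of 7.93 and 7.82 on the day 14 arrays, against 8.76 and 9.59 on the day 0 arrays, and its day 0 arrays stood further apart than its day 14 arrays. Hlf, an output factor of the clock, stood at -1.23 ± 0.09, Dbp at -0.50 ± 0.16, Per1 at -0.53 ± 0.16 and Arntl, the activator BMAL1, at -0.29 ± 0.08. The time of day of collection is not in the labels used here. Of 23 genes of atrophy ligases, FoxO factors and autophagy 12 fell, 3 rose and 8 did not pass. Fbxo32, the ubiquitin ligase atrogin-1, had signals of 10.92 and 11.00 on day 14, against 12.24 and 12.37 on day 0, and Trim63, the ligase MuRF1, of 10.37 and 10.43 on day 14, against 11.09 and 11.52 on day 0. Both had risen since day 10, by 0.61 ± 0.13 and 0.58 ± 0.15. Fbxo31 stood at -1.71 ± 0.14, Foxo4 at -1.18 ± 0.09, and the lysosomal protease gene Ctsl rose by 0.83 ± 0.11.

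The Asb genes, which encode ankyrin repeat proteins with a SOCS box that serve as adaptors of ubiquitin ligases and of which several are made in muscle, were looked at after their values were seen. Of 18 measured members 13 were lower on day 14, against 30.5% of all genes, and 8 of these by at least 2-fold, against 2.16%. None was higher than on day 0, against 22.9%, and 5 were higher than on day 10, against 3.79%. Asb4 had signals of 7.51 and 7.50 on the day 14 arrays, against 10.17 and 10.14 on the day 0 arrays, Asb15 of 9.88 and 9.64 on day 14, against 11.73 and 11.70 on day 0 and Asb10 of 8.54 and 8.22 on day 14, against 10.20 and 10.18 on day 0. Asb2, known to act in muscle growth, stood at -1.42 ± 0.16. Asb5 did not pass at 0.00 ± 0.11, and Asb3 and Asb6 did not either, at 0.01 ± 0.08 and 0.01 ± 0.08.

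General macrophage genes were above day 0 on day 14, while the lists of resident and lipid-laden macrophages held genes of both directions. Of 23 macrophage and monocyte genes 22 rose, 21 by at least 2-fold, with a median of 1.69, and 10 were lower than on day 10, against 5.11% of all genes. Ms4a7, a membrane protein of macrophages, had signals of 10.68 and 10.83 on the day 14 arrays, against 7.25 and 6.87 on the day 0 arrays, a difference of 3.70 ± 0.14. Cd68, a lysosomal protein of macrophages, had signals of 11.50 and 11.59 on day 14, against 9.59 and 8.92 on day 0, and Csf1r, the receptor that keeps them alive, stood at 1.58 ± 0.12. The summed linear signal of the list was 43207 and 47004 on day 14, against 16686 and 11231 on day 0. Of 19 genes of resident macrophages 12 rose and 5 fell: Ccl8, a chemokine of tissue macrophages, had signals of 10.53 and 10.49 on day 14, against 7.25 and 6.63 on day 0, Mrc1, the mannose receptor, stood at 2.02 ± 0.13, and Retnla, a resistin-like protein, fell by 1.30 ± 0.34 on the log2 scale. Of 15 genes of lipid-laden macrophages 11 rose and 3 fell, with Ctsk, cathepsin K, at 2.66 ± 0.20, Gpnmb at 2.34 ± 0.17 and Trem2, a lipid receptor, at 1.26 ± 0.11. The 3 that fell were Lpl at -1.05 ± 0.09, the fatty acid carrier gene Cd36 at -0.66 ± 0.07 and Syngr1 at -0.99 ± 0.08. Lysosomal genes had 19 of 23 members higher and 2 lower, with Lipa, the acid lipase, at 2.03 ± 0.10.

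Antigen presentation genes were higher on day 14. Of 10 MHC class II presentation genes 8 rose, with a median of 1.84. The class II chains H2-Ab1 and H2-Aa had differences of 2.10 ± 0.15 and 2.06 ± 0.15, and Cd74, the invariant chain, had signals of 12.60 and 12.74 on the day 14 arrays, against 11.12 and 10.54 on the day 0 arrays. H2-Oa and H2-Ob, class II chains of B cells, did not pass, at -0.12 ± 0.11 and 0.07 ± 0.13. Complement genes had 13 of 16 members higher and 1 lower. Relative to day 10, 5 of the 16 were higher and 3 lower, against 3.79% and 5.11% of all genes. C3ar1, the receptor of the C3a peptide, stood at 2.65 ± 0.12, C1qb at 2.17 ± 0.16 and Cfb, factor B of the alternative pathway, at 2.07 ± 0.13, with 0.48 ± 0.13 relative to day 10. C7, a late component, fell by 1.30 ± 0.22 on the log2 scale.

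Of 34 cytokine and chemokine genes 18 rose and 2 fell, with a median of 0.47. Ccl3, a chemokine of macrophages, had signals of 9.90 and 10.37 on the day 14 arrays, against 7.37 and 6.94 on the day 0 arrays, and Cxcl16, a chemokine bound to the membrane, stood at 2.31 ± 0.11. Ccl5, made by T cells and macrophages, had signals of 10.94 and 11.16 on day 14, against 9.05 and 8.75 on day 0 and was higher than on day 10 by 0.90 ± 0.14 (adjusted p = 0.00409). Il1b stood at 0.63 ± 0.18 and Il6 at 0.70 ± 0.25, and Tnf did not pass at -0.03 ± 0.10. Interferon-stimulated genes had 12 of 18 members higher and 1 lower, from Oasl2 at 1.27 ± 0.11 to Rsad2 at -0.46 ± 0.15. Without the left pool of day 0, 8 of them were higher.

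Several T cell and NK cell genes were higher on day 14 than on day 0 and also than on day 10. Of 22 such genes 14 rose and 1 fell, with a median of 0.62, against 0.31 on day 10, and 8 were higher than on day 10, against 3.79% of all genes. Cd3g, a chain of the T cell receptor complex, had signals of 8.61 and 9.26 on the day 14 arrays, against 6.78 and 6.79 on the day 0 arrays, a difference of 2.14 ± 0.17, and was 1.01 ± 0.17 relative to day 10 (adjusted p = 0.0052). Nkg7, a granule protein of cytotoxic cells, had signals of 9.74 and 10.23 on day 14, against 8.70 and 7.89 on day 0, and each group's arrays lay closer together than the groups. The co-receptor genes Cd8b1 and Cd4 stood at 1.42 ± 0.16 and 1.40 ± 0.12. Foxp3, the factor of regulatory T cells, did not pass at -0.07 ± 0.07, and Ikzf2 was the gene that fell, at -0.66 ± 0.10. The summed linear signal of the list was 5816 and 6947 on day 14, against 3914 and 3635 on day 0, above day 0 on both arrays.

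Neutrophil genes were lower on day 14 than on day 0. Of 15 genes 12 fell and none rose, 11 by at least 2-fold, with a median of -1.61. Ngp, a granule protein of granulocyte precursors, had signals of 9.61 and 10.12 on the day 14 arrays, against 12.10 and 11.66 on the day 0 arrays, a difference of -2.02 ± 0.66 (adjusted p = 0.0219). Its call ended without the left pool of day 14 (adjusted p = 0.0957), without the left pool of day 0 (0.0943), with an intensity trend and robust estimation (0.0794) and with array weights (0.0506). Ltf, lactoferrin, had signals of 8.53 and 8.87 on day 14, against 10.88 and 10.07 on day 0 and lost its call under 3 of the same settings. S100a8 and S100a9, the calprotectin subunits, stood at -1.68 ± 0.35 and -1.70 ± 0.33, and Mpo and Elane, granule enzymes of precursors, at -1.67 ± 0.49 and -1.61 ± 0.40. The summed linear signal of the 15 genes was 4439 and 5267 on day 14, against 17589 and 11160 on day 0. Of 9 listed red blood cell genes 2 were measured and both fell, with Alas2, of haem synthesis, having signals of 9.57 and 9.40 on day 14, against 10.94 and 10.02 on day 0 and Slc4a1, the anion exchanger band 3, of 8.47 and 8.37 on day 14, against 10.40 and 9.39 on day 0. Without the left pool of day 0 Slc4a1 did not pass (adjusted p = 0.0636), and the median of both genes was -0.75, against -1.24 with all arrays. Of 12 B and plasma cell genes 6 fell and 1 rose, at most by 0.66 ± 0.19 on the log2 scale for Cd79a, a chain of the B cell receptor; without the left pool of day 0, 2 fell and 4 rose. The part of blood cells in the day 0 arrays in these results was not tested.

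Mast cell genes had 3 of 10 members higher, against 22.9% of all genes, and 1 lower, against 30.5%. Cpa3, the mast cell carboxypeptidase, had signals of 8.96 and 8.76 on the day 14 arrays, against 8.07 and 7.65 on the day 0 arrays and was 1.04 ± 0.21 relative to day 10 (adjusted p = 0.0112), and Mcpt4, a chymase, stood at 0.61 ± 0.13. The chymase gene Cma1 and the tryptase gene Tpsb2 did not pass, at 0.17 ± 0.13 and -0.03 ± 0.11.

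Many cell division genes were above day 0 and below day 10. Of 32 cell division genes 20 rose and 3 fell, with a median of 0.56, and 20 of the 32 were lower than on day 10, against 5.11% of all genes. Without the right pool of day 0, 14 rose and 4 fell and the median was 0.33. Ccna2, cyclin A2, had signals of 9.57 and 9.42 on the day 14 arrays, against 8.86 and 7.77 on the day 0 arrays, with the day 0 arrays far apart, a difference of 1.18 ± 0.28 (adjusted p = 0.00388). Top2a, the topoisomerase of dividing cells, stood at 1.11 ± 0.25, and Mki67, the proliferation antigen, did not pass at 0.56 ± 0.33 (adjusted p = 0.173). Aurka, a mitotic kinase, had signals of 8.13 and 8.02 on day 14, against 8.95 and 8.95 on day 0, so it lay below day 0. Of 15 genes of senescence and cell cycle arrest 5 rose and 2 fell, against 22.9% and 30.5% of all genes. With equal array medians 5 fell and the list median was -0.02. After the median difference was shifted to 0, 1 fell and it was 0.21. Ccnd2 and Ccnd1, cyclins of the first growth phase that the list also counts, rose by 1.41 ± 0.09 and 1.27 ± 0.09. Cdkn2a, the senescence gene that encodes p16, had signals of 7.65 and 7.58 on day 14, against 7.74 and 8.01 on day 0. It did not pass (adjusted p = 0.146). With the side as a block, and with equal array medians, Cdkn2a passed as lower (adjusted p = 0.0398 and 0.0404).

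Part of the genes of ribosomes and protein folding were higher, ribosomal protein genes by small amounts. Of 29 ribosomal protein genes 14 rose and 1 fell, with a median of 0.22, and Rpl10a had signals of 13.18 and 13.22 on the day 14 arrays, against 12.69 and 12.44 on the day 0 arrays. That count was 7 with equal array medians, 22 after the median difference was shifted to 0 and between 8 and 10 without any of the 4 arrays. Of 30 genes that serve ribosome assembly and polymerase I transcription 5 rose and 8 fell, near the 22.9% and 30.5% over all genes. Myc, a transcription factor induced by growth signals, stood at 0.89 ± 0.10, and Dkc1, which modifies ribosomal RNA, stood at -0.50 ± 0.13. Folding enzymes of the secretory pathway had 14 of 24 members higher and 3 lower. Pdia3 and Pdia4, disulphide isomerases, stood at 1.38 ± 0.11 and 1.22 ± 0.13, whereas the stress factors Atf4 and Ddit3 stood at -0.48 ± 0.09 and -0.30 ± 0.11. Of 16 amino acid transporter genes 10 rose and 2 fell, led by Slc38a1, a glutamine carrier, at 1.96 ± 0.13, and Slc7a5, the leucine carrier, had signals of 10.43 and 10.38 on day 14, against 9.48 and 9.22 on day 0. Aldh18a1, of proline synthesis, rose by 1.82 ± 0.08 and Psat1, of serine synthesis, by 1.43 ± 0.14. Cholesterol synthesis genes had 5 of 16 members higher and 3 lower, against 22.9% and 30.5% of all genes, with Hsd17b7 at -1.32 ± 0.09.

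Vessel genes changed in both directions. Of 22 endothelial genes 12 rose and 4 fell, with a median of 0.27. Aplnr, the apelin receptor of growing vessels, had signals of 10.42 and 10.37 on the day 14 arrays, against 8.49 and 8.43 on the day 0 arrays, and Plvap, a protein of fenestrae, of 10.56 and 10.54 on day 14, against 9.10 and 8.72 on day 0. Car4, a carbonic anhydrase of capillaries in muscle, had signals of 8.03 and 8.05 on day 14, against 9.98 and 9.97 on day 0, a difference of -1.94 ± 0.09. The pan-endothelial genes Pecam1 and Cdh5 stood at 0.66 ± 0.14 and 0.52 ± 0.08, and the vascular growth factor receptor genes Flt1 and Kdr fell, at -0.86 ± 0.09 and -0.48 ± 0.07. The summed linear signal of the list was 34419 and 33819 on day 14, against 29954 and 28992 on day 0. Smooth muscle and pericyte genes had 6 of 15 members higher and 4 lower, against 22.9% and 30.5% of all genes. Acta2, smooth muscle actin, stood at 0.91 ± 0.10 and Lmod1 at -0.82 ± 0.09.

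Schwann cell and adipocyte genes were called about as often as all genes. Of 15 Schwann cell and myelin genes 4 rose and 5 fell, near the 22.9% and 30.5% over all genes, with Gldn, gliomedin of the node of Ranvier, at 1.02 ± 0.12 and 0.73 ± 0.12 relative to day 10, and Mbp, a myelin protein, at -0.32 ± 0.11. Of 18 adipocyte genes 3 rose and 6 fell, also near those shares. Plin4, a lipid droplet protein, stood at -1.57 ± 0.12, and Adipoq, adiponectin, had signals of 9.04 and 9.62 on the day 14 arrays, against 8.77 and 8.14 on the day 0 arrays and was 0.96 ± 0.23 relative to day 10. In that list 9 genes were higher than on day 10, against 3.79% of all genes, and the summed linear signal was 36345 and 39192 on day 14, against 39919 and 39309 on day 0. Without the right pool of either day, none of its genes was higher than on day 0. All 7 measured liver and serum protein genes were lower, with Alb, serum albumin, having signals of 6.72 and 6.48 on day 14, against 9.45 and 10.00 on day 0, and the other 6 fell by less than 2-fold. Keratinocyte genes, which mark skin, had 4 of 10 members higher than on day 10, against 3.79% of all genes. Against day 0, 5 were higher and none lower. Without the left pool of day 14, 2 were higher and 2 lower, and without the left pool of day 0, 2 were higher. Krt5, a keratin of basal skin, had signals of 9.10 and 8.04 on day 14, against 7.27 and 7.52 on day 0, so it was highest in the left pool of day 14, and without that pool it did not pass (adjusted p = 0.185). Krt10, a keratin of upper skin layers, had signals of 8.68 and 8.51 on day 14, against 7.93 and 7.58 on day 0. The summed linear signal of the keratinocyte list was 2801 and 2109 on day 14, against 1633 and 1742 on day 0, and its part in other results was not tested.

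Some genes were first called after day 5. By the naming rule these were not called on days 1, 3 and 5 and were called on day 14 against both day 0 and day 10. Igfn1, an immunoglobulin and fibronectin domain protein of skeletal muscle, had signals of 9.68 and 10.08 on the day 14 arrays, against 7.67 and 8.12 on the day 0 arrays, with differences of 1.00 on day 7, 1.14 on day 10 and 1.99 ± 0.19 on day 14. Kcne1l, a potassium channel subunit, stood at 0.44 on day 10 and 1.59 ± 0.10 on day 14. Dio2, the deiodinase that makes active thyroid hormone, had signals of 9.27 and 9.35 on day 14, against 8.05 and 7.82 on day 0, and Tshr, the receptor of thyroid-stimulating hormone, of 8.27 and 8.55 on day 14, against 7.30 and 6.92 on day 0. Gimap3, a GTPase of lymphocytes, and Krt8, a keratin of simple epithelia, stood at 1.29 ± 0.18 and 1.09 ± 0.11. The rule chose these genes by the same contrasts, so their order in time is a description.

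Several genes of the early inflammatory reaction were near day 0 again. The returned genes were chosen for a large earlier change and a day 14 difference under 0.25 that did not pass. Arg1, arginase 1 of activated macrophages, had signals of 6.95 and 6.84 on the day 14 arrays, against 6.93 and 6.64 on the day 0 arrays, after differences of 5.02 on day 1, 5.03 on day 3 and 1.56 on day 10. The neutrophil chemokine genes Cxcl2, Cxcl3 and Cxcl5 stood at 0.18 ± 0.28, -0.12 ± 0.15 and 0.08 ± 0.14, after 5.37, 4.71 and 4.20 on day 1. Il1r2, the decoy receptor of interleukin 1, and Slfn4, of myeloid cells, stood at 0.05 ± 0.16 and -0.08 ± 0.17. The 95% interval of the Cxcl2 difference ran from -0.43 to 0.78, and that of Arg1 from -0.22 to 0.44, which is how far these arrays bound the difference.

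**Figure D4:**
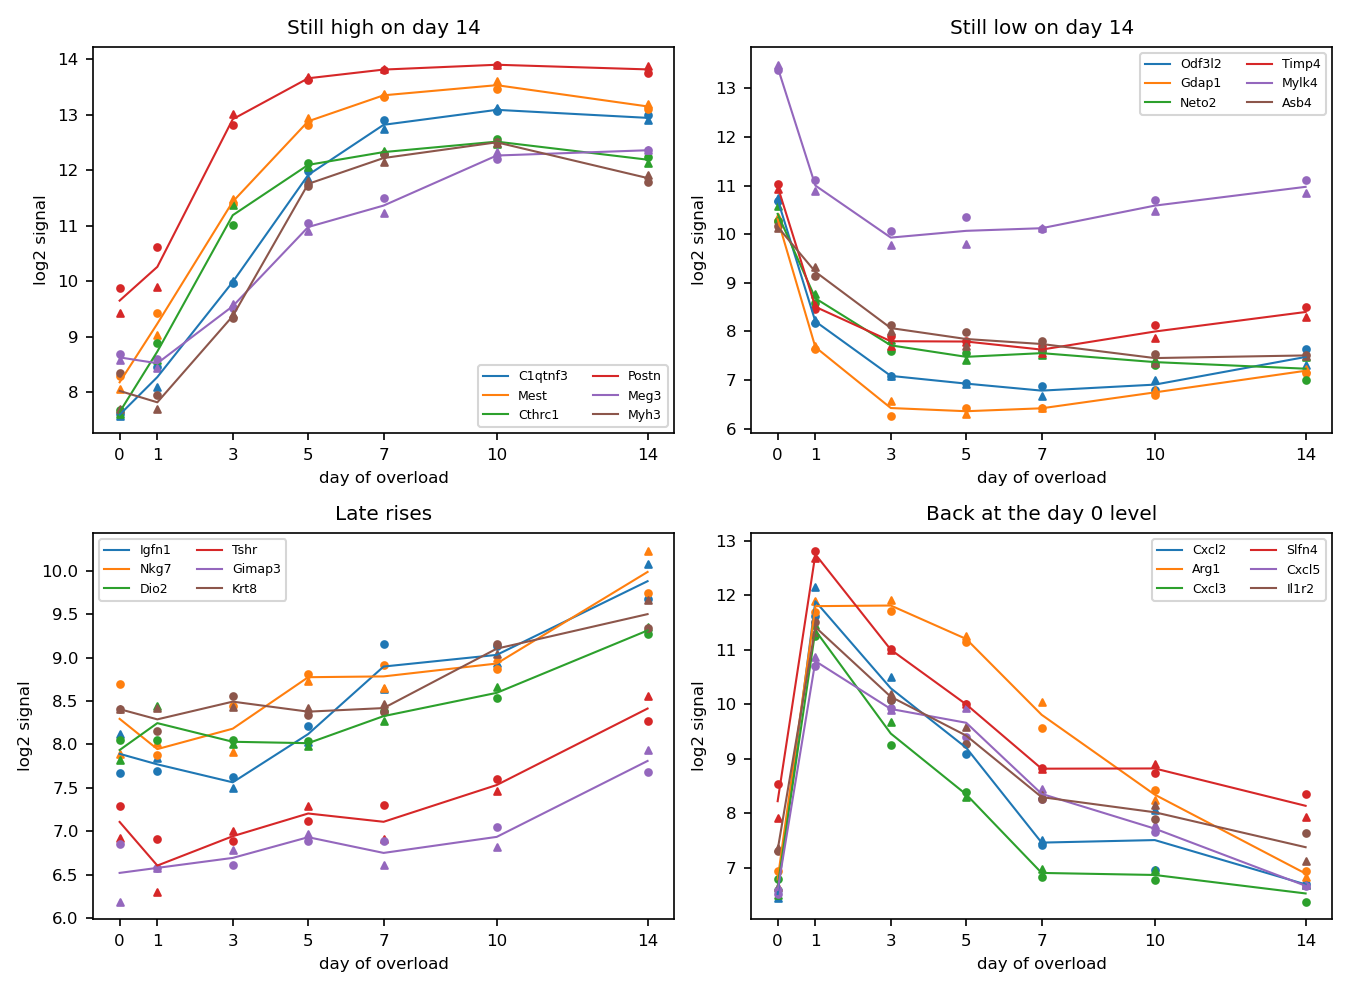
Log2 signal (y axis) over the 7 sampled days of overload (x axis) for genes that were still high, still low, late to rise or back at day 0 on day 14; circles are left pools, triangles right pools and lines the mean of the 2. Late genes such as Igfn1 and Dio2 have their highest signals on day 14, and the chemokine genes peak on day 1.

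A further group changed direction. Tnmd stood at -1.62 on day 1, 2.15 on day 7 and 3.23 ± 0.16 on day 14, and osteoglycin (Ogn), a small proteoglycan, at -1.71, 1.46 and 1.59 ± 0.11 on the same days. Ccn3, a matricellular protein, had signals of 11.82 and 11.68 on the day 14 arrays, against 9.52 and 9.28 on the day 0 arrays, after a difference of -1.61 on day 1, and was 0.97 ± 0.17 relative to day 10. Casq2, the calsequestrin of slow and cardiac muscle, stood at -1.72 on day 1 and 1.75 ± 0.08 on day 14. Retnlg, of neutrophils, went the opposite way, with 1.85 on day 1 and -1.78 ± 0.32 on day 14. Hmcn1, a basement membrane protein, had signals of 11.10 and 10.02 on day 14, against 9.16 and 8.92 on day 0, with its day 14 arrays further apart than its day 0 arrays.

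**Figure D5:**
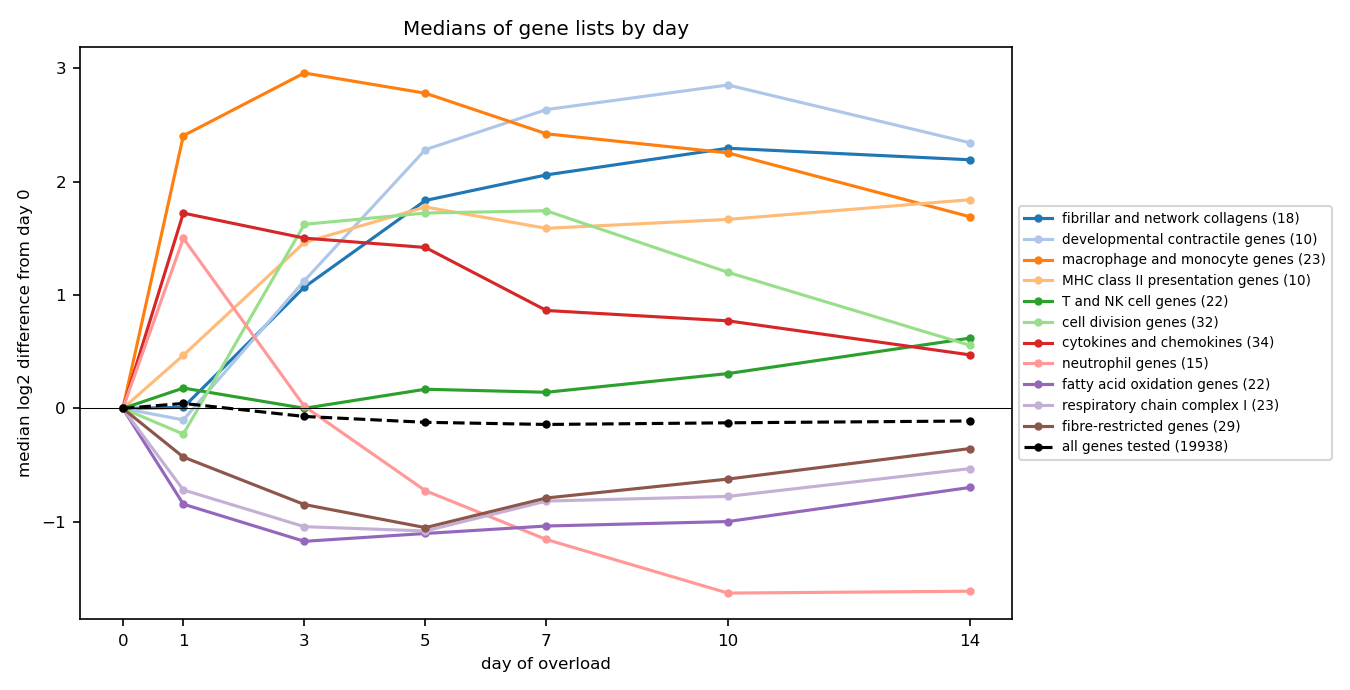
Median log2 difference from day 0 (y axis) of 11 gene lists and of all genes tested (dashed) on the 7 sampled days of overload (x axis), with the number of measured genes in brackets. On day 14 the collagen and developmental contractile medians lie above 2, the T and NK cell median is at its highest, and the fatty acid oxidation, complex I and fibre-restricted medians lie below 0 and above their lowest values.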

How the data were processed

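Values are log2 signals per probe set that the authors normalized before they were deposited. The normalization method and any background step are not given in the sources used here. Partek, with no version, is named in the submitters' processing notes. The deposited table held 35557 probe sets on 14 arrays, 1 pool of 6 animals each. The labels' texts give both 100 and 250 ng as RNA input. No detection call was used, so no gene is called absent.

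Of the probe sets, 21789 had 1 gene symbol. For 999 genes with more than 1, the probe set with the highest mean was kept, which left 19938 genes. limma 3.58.1 in R 4.3.3 was fitted to all 14 arrays with day as the group, and p-values were adjusted by the Benjamini-Hochberg method over all genes tested. Every adjusted p in the text is from this limma fit or from a stated alternative. The fit was tested on simulated data for day 14 against day 0: of 50 genes changed per size, 4, 64, 100 and 100% were called at log2 changes of 0.25, 0.5, 1 and 2. Among the unchanged genes of the simulation 9 were called. The simulation changed far fewer genes than the 53.3% called in the data, and an adjusted p depends on that share. These percentages are therefore not the recovery in the data.

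Members and gene lists were chosen with earlier results of these data known. Of 1079 listed genes, 19 were matched through an older symbol. The rule named the 20 largest rises and the 20 largest falls with non-overlapping arrays, the 3 largest called changes of each list, 10 late, 10 returned and 10 reversed genes, and a set of names. Other list members in the text, the region between Dlk1 and Dio3, the Asb genes, the miRNA genes and the promoters were chosen after their values were seen. Alternatives were other scalings, filters, probe set rules, variance settings, the side as a block, the compared arrays alone and leaving out each array.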

Additional observations from a re-analysis of the deposited data

Results flagged for a closer look

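Probe sets that entered no comparison also differed between the days. Among 12147 probe sets with no gene symbol, 369 were at least 2-fold higher on day 14 than on day 0 and 124 were at least 2-fold lower. Among 1621 probe sets assigned to several genes, 86 were at least 2-fold higher and 14 at least 2-fold lower. Over the genes tested the shares were 6.06% and 2.16%, and both kinds of probe set lay below them. They were drawn to attention because they lie outside the genes tested, and they are given without names because no single gene is paired with them here.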

How the results depend on the processing

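The number of genes lower on day 14 than on day 0 was 9288 with equal array medians, 3598 with the median difference shifted to 0 and 3843 at an adjusted p under 0.01, against 6074 with the deposited values. Leaving out 1 array gave 4028 to 5595, lowest without the right pool of day 14. Against day 10, 165 genes were higher and 320 lower at an adjusted p under 0.01, against 756 and 1019, and leaving out 1 array gave 57 to 412 higher and 180 to 461 lower, both lowest without the right pool of day 10. These tests had fewer samples or a stricter threshold, and the cause of the scaling effect was not tested. The counts of genes higher than on day 0, and of changes of at least 2-fold in either direction, stayed within 1.5 times under every alternative run. The side as a replicate block gave 4617 genes higher and 6213 lower than day 0. Sides carry no pairing of animals across days, and the right minus left deviations of day 14 and day 0 correlated at r = -0.185. Of 210 named genes none changed sign among called values, and 200 to 209 stayed on their side of the threshold and near their value, depending on the alternative. At most 8 lost their call, without the left pool of day 14. The list counts under these alternatives were added after the data were seen. Small counts moved by over 1.5 times in several lists not named beside such a change, among them satellite cell, Schwann cell, resident macrophage and cholesterol synthesis genes. In simulated data, which held far fewer changed genes than the data, few changes of 0.25 were called. Small differences that did not pass are not shown to be absent.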
